A study of Rattus norvegicus with 9 samples.

Results

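The interleukin 6 axis was followed through 7 genes in cardiac RNA-seq libraries of rats: the ligands Il6 and Lif, the receptor subunits Il6ra, Osmr and Il6st, the transcription factor Stat3 and the feedback inhibitor Socs3. The genes were picked by symbol, and all 7 were among the 5760 genes listed in at least 1 of the 2 deposited tables. Of these, 5 were among the 4288 genes of the table with the Cal and model libraries, 4 were among the 2458 genes of the table with the sham libraries, and Lif and Stat3 were in both.

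Ligands of this family bind receptors that share the signal-transducing subunit gp130, the product of Il6st. Interleukin 6 first binds its own α receptor, encoded by Il6ra, while LIF and oncostatin M use gp130 together with the LIF receptor or the oncostatin M receptor. Janus kinases bound to gp130 then phosphorylate STAT3, which enters the nucleus and induces, among others, Socs3, whose product binds gp130 and the kinases and shuts the signal off. In the heart the pathway is known for its acute response to infarction and for roles in cardiomyocyte survival and remodelling.

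Hearts of male Sprague Dawley rats were sampled in 3 groups of 3 animals, drawn at random from 8 rats per group. The sham rats (control in the labels, Con in the tables) underwent the operation without ligation of the coronary artery and received distilled water. The model rats had heart failure after ligation of the left anterior descending artery and received water too. The Cal rats had the same ligation and received calycosin by mouth at 80 mg/kg per day for 28 days, starting 24 h after surgery. The ages of the rats and the region of the heart that was sequenced are not given in the sources used here, and ligation leaves infarcted and spared muscle in the same organ.

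The group names conflict within the tables. Each table also holds a mean per group. In the Cal and model table, the values averaged under the heading Cal are those of Model_1 to Model_3 for all 4288 genes, and the mean headed Model averages Cal_1 to Cal_3. In the sham table, a mean headed Model averages Cal_1 to Cal_3 for all 2458 genes, and the remaining sample columns are headed Con. The authors titled the sham table as model against control, as its mean heading has it and unlike its Cal sample headings. Libraries are named here by the headings of their sample columns. By the mean columns, the Model-headed libraries are the Cal group and the Cal-headed ones are the model group. Each difference between Cal and Model below would then carry the exchanged names. Each difference between Cal and Con would be model against sham, and each difference between Model and Con would be Cal against sham. The Cal-headed libraries had identical reads in all 986 genes that the tables share.

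Each value is a normalized count, that is, the reads of a gene divided by a size factor of its library. Reads on the listed genes ranged from 2860826 to 4659882 per library and table, and the full depth is unknown. All genes in both tables have a deposited adjusted p under 0.05, so each listed member had already been selected for a difference in that comparison and the tests below repeat it. Of 8 cardiomyocyte markers, Myh6 and Ryr2 were listed, in the sham table. Their summed normalized count was 267190 to 338080 in the Con-headed libraries and 360760 to 362830 in the Cal-headed ones, without overlap (log2 fold changes of 0.29 and 0.31, limma adjusted p = 0.0103 and 0.0165). Both fold changes lie below the median of 0.37 over all genes of that table, and neither reached 1 on the log2 scale. For Ryr2 the limma adjusted p rose as far as 0.0629 with a library left out, with values up to 0.805 over the alternatives.

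**Figure D1:**
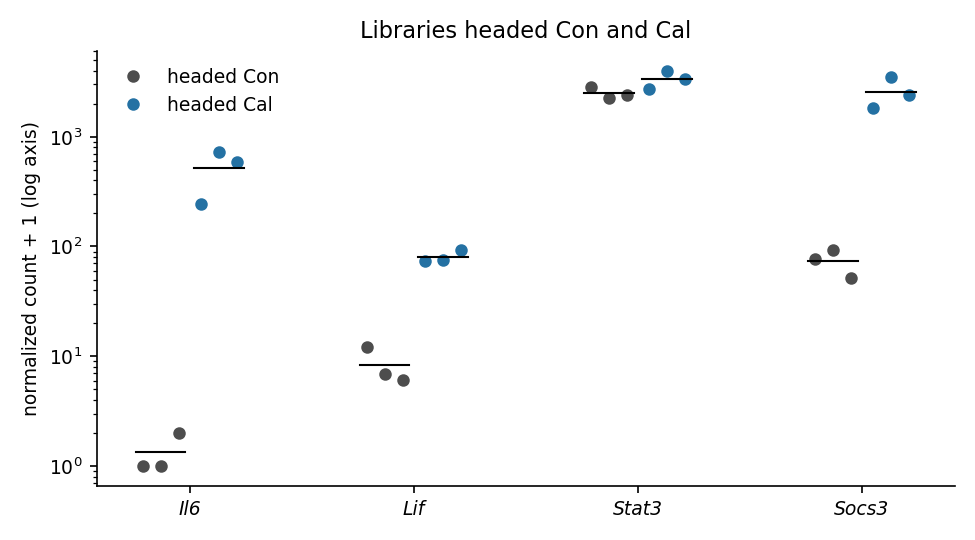
Normalized counts plus 1 (log axis) of Il6, Lif, Stat3 and Socs3 in the 3 Con-headed libraries and the 3 Cal-headed ones. Each point is a library and each bar the mean, and the groups overlap for Stat3 but not for Il6, Lif or Socs3.

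Against the sham libraries, 3 of the 4 listed members passed an adjusted p under 0.05 from limma with a log2 fold change beyond 1, and each was higher in the Cal-headed libraries than in the Con-headed ones. Among all 2458 genes tested there, 29.0% were called, 18.0% higher and 10.9% lower. Between the Cal-headed and Model-headed libraries, 3 of the 5 listed members were called, each lower in the Cal-headed ones, where 60.1% of all 4288 genes were called, 28.4% higher and 31.6% lower. The called members were Il6, Socs3 and Lif in the sham comparison, and Osmr, Il6ra and Stat3 between Cal and Model. Between Cal and Model, 3 of 5 was near the 60.1% called over all genes. There 19.8% of all genes had a lower log2 fold change than Stat3. The groups of 3 libraries overlapped for Stat3 between Cal and Con and for no other listed member. All listed genes had been selected for a difference, and the share of them without overlap was not counted. A two-sided exact permutation test of 3 against 3 cannot give a p under 0.1.

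Il6 (ENSMUSG00000025746) encodes the founding cytokine of the family and was listed in the sham table only. The table places it on mouse chromosome 5 from 30013114 to 30019981, on the plus strand, and names no build. Its normalized counts were 243, 720 and 589 in Cal-headed libraries 1 to 3, which rest on 236, 684 and 619 reads. In the Con-headed libraries they were 0, 0 and 1.01, the last of them a lone read. The gene was thus near the limit of detection in the sham heart and present in each library headed Cal, where the mean was 518 ± 246 (mean ± SD of 3 libraries). Against a floor of 3 counts per library, Il6 was at least 177-fold higher in the Cal-headed libraries. The log2 fold change on the scale of log2(normalized count + 1) was 8.54 (standard error, SE, = 0.47, limma adjusted p = 3.43e-06), above that of 99.9% of the genes in the table. This fitted size depends on the added constant, since it was 11.04 with 0.1 and 5.54 with 10.

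The upstream sequence of rat Il6 is shown because Il6 had the largest log2 fold change among the 4 members of the sham table. The 250 bases before the gene's start in RefSeq (GRCr8, chr4:5894576-5894825, minus strand) are given 5′ to 3′, with matches to 3 of the motifs named after it in capitals.

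Il6 upstream: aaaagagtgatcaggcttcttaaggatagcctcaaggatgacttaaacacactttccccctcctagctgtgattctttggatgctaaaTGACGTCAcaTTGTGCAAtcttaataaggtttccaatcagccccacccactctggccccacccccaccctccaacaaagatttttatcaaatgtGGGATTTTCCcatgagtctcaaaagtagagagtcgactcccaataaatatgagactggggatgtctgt

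The window was searched on both strands for 4 motifs, and none of the matches overlapped another. The cyclic AMP response element TGACGTCA lay at -162 to -155 from the start, and 1.59% of 33469 rat upstream windows of the same length hold it. The C/EBP motif TTGNGCAA was matched as TTGTGCAA at -152 to -145 and is held by 2.29% of the windows. The NF-κB motif, searched as GGG, any 2 bases and TTTCC, was matched as GGGATTTTCC at -68 to -59 and is held by 1.30%. The STAT motif TTCNNNGAA, which 7.67% of the windows hold, had no match in these 250 bases. A match describes letters in the window, and binding was not measured.

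Lif (ENSMUSG00000034394, mouse chromosome 11 from 4257557 to 4272514, plus strand) encodes leukemia inhibitory factor. Its normalized counts against sham were 11.2, 5.89 and 5.06 in Con-headed libraries 1 to 3 and 73.2, 73.7 and 92.4 in Cal-headed libraries 1 to 3. All Cal-headed libraries were above all the Con-headed ones, which rest on 5 to 12 reads. The means were 79.8 ± 10.9 and 7.38 ± 3.32 (mean ± SD of 3 libraries), a log2 fold change of 3.33 (SE = 0.33, limma adjusted p = 9.26e-05). In the Cal and model table Lif had 118, 157 and 102 in Model-headed libraries 1 to 3, against 65.5, 65.7 and 82.8 in Cal-headed libraries 1 to 3. The Model-headed libraries were again the higher, but the Cal-over-Model log2 fold change, -0.79 (SE = 0.23, limma adjusted p = 0.0128), did not reach the limit of 1. Under median-ratio scaling it was -0.50 (limma adjusted p = 0.0651, with 0.00487 to 0.0651 over the alternatives).

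**Figure D2:**
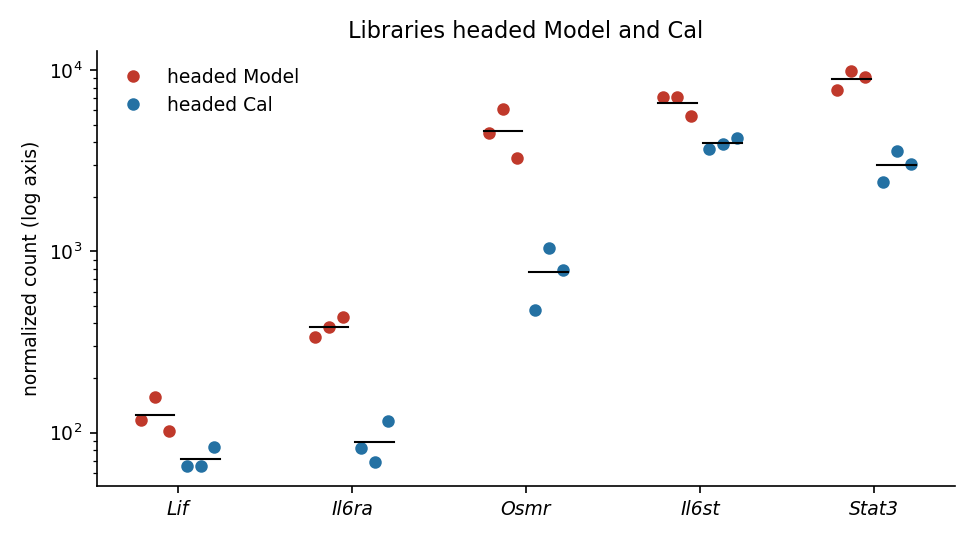
Normalized counts (log axis) of Lif, Il6ra, Osmr, Il6st and Stat3 in the 3 Model-headed libraries and the 3 Cal-headed ones. Each point is a library and each bar the mean, and all Model-headed libraries lie above all the Cal-headed ones in each gene, most widely in Osmr.

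Among the receptor subunits, Osmr (ENSMUSG00000022146, mouse chromosome 15 from 6813577 to 6874969, minus strand) had the largest difference in the authors' scaling. It encodes the subunit that pairs with gp130 to bind oncostatin M. Its normalized counts were 4472, 6105 and 3282 in Model-headed libraries 1 to 3 and 475, 1046 and 790 in Cal-headed libraries 1 to 3. The lowest library headed Model was thus above the highest headed Cal, although the values spread widely within each group. The means were 4620 ± 1417 and 770 ± 286 (mean ± SD of 3 libraries), 5.998 times as high in the Model-headed libraries. Cal over Model gave a log2 fold change of -2.61 (SE = 0.33, limma adjusted p = 0.000576), and 7.93% of the genes in the table lay below it. Under quantile normalization it was -2.09, and that of Il6ra, described next, was -2.13, so the order of these 2 turned.

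Il6ra (ENSMUSG00000027947, mouse chromosome 3 from 89864059 to 89913196, minus strand) encodes the ligand-binding subunit, whose expression limits which cells can respond to interleukin 6 through a membrane receptor. It had 336, 383 and 435 in Model-headed libraries 1 to 3 and 82.1, 68.5 and 115 in Cal-headed libraries 1 to 3. The groups were far apart relative to their spread, with means of 385 ± 49.7 and 88.6 ± 24.1 (mean ± SD of 3 libraries). Cal over Model gave a log2 fold change of -2.13 (SE = 0.23, limma adjusted p = 0.000346).

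Il6st (ENSMUSG00000021756, mouse chromosome 13 from 112464070 to 112510086, plus strand), the gene of gp130, had 7130, 7057 and 5611 in Model-headed libraries 1 to 3. In Cal-headed libraries 1 to 3 it had 3683, 3901 and 4233. The groups did not overlap, with means of 6599 ± 857 and 3939 ± 277 (SD over 3 libraries). Cal over Model gave a log2 fold change of -0.74 (SE = 0.15, limma adjusted p = 0.00342), short of the limit of 1. Quantile normalization took it to -0.05 (limma adjusted p = 0.772, with 5.33e-05 to 0.772 over the alternatives). Of the 3 receptor genes, Il6st was thus the most abundant and differed least. Osmr, Il6ra and Il6st were not in the sham table, and their levels in the Con-headed libraries were not analysed here.

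Stat3 (ENSMUSG00000004040, mouse chromosome 11 from 100885098 to 100939540, minus strand) encodes the factor that carries the signal to the nucleus, and its protein acts mainly after phosphorylation, which RNA does not show. In the Cal and model table it had 7746, 9937 and 9116 in Model-headed libraries 1 to 3 and 2424, 3584 and 3022 in Cal-headed libraries 1 to 3. Each library headed Model was above each headed Cal, and Cal over Model gave a log2 fold change of -1.58 (SE = 0.19, limma adjusted p = 0.000471). Quantile normalization took this difference to -0.90 (limma adjusted p = 0.00255), under the limit of 1.

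Against sham, Stat3 had 2835, 2248 and 2383 in Con-headed libraries 1 to 3, against 2711, 4018 and 3369 in Cal-headed libraries 1 to 3. The library headed Cal 1 lay below the highest headed Con, and the groups overlapped (two-sided exact permutation test, p = 0.2). Cal over Con gave a log2 fold change of 0.42 (SE = 0.15, limma adjusted p = 0.0212). It was 0.57 without the library headed Cal 1 (limma adjusted p = 0.00546). It missed 0.05 without Cal 2, Cal 3, Con 2 or Con 3, with 0.29, 0.41, 0.35 and 0.40 and limma adjusted p of 0.0716, 0.0551, 0.0687 and 0.0657. Quantile normalization took it to -0.05 and median-ratio scaling to 0.14. The difference of Stat3 between Cal and Con thus depended on single libraries and on the scaling.

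Socs3 (ENSMUSG00000053113, mouse chromosome 11 from 117966079 to 117970047, minus strand), the feedback inhibitor, was listed in the sham table only. Its normalized counts were 76.4, 91.3 and 50.6 in Con-headed libraries 1 to 3 and 1833, 3501 and 2423 in Cal-headed libraries 1 to 3. Every library headed Cal was far above every library headed Con. The means were 2586 ± 846 and 72.8 ± 20.6 (mean ± SD of 3 libraries), 35.5 times as high in the Cal-headed libraries. The log2 fold change was 5.12 (SE = 0.27, limma adjusted p = 2.75e-06), above that of 98.9% of the genes in the table. With each library left out in turn it stayed between 4.88 and 5.34. Il6 and Socs3 were not in the Cal and model table, so their levels in the Model-headed libraries were not analysed here.

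Lif and Stat3 could be followed through all 3 groups, with the Con-headed libraries set on the scale of the Cal and model table through the libraries that both tables share. On that scale Lif had 6.60 ± 2.97 in the Con-headed libraries, 71.3 ± 9.96 in the Cal-headed ones and 126 ± 28.7 in the Model-headed ones (mean ± SD of 3 libraries), with no overlap between neighbours. Stat3 had 2225 ± 275, 3010 ± 580 and 8933 ± 1107 in the same order (mean ± SD of 3 libraries), and Con and Cal were the neighbours that overlapped. In a fit of all 9 libraries over the 986 shared genes, the log2 fold change of Model over Con was 4.10 for Lif (SE = 0.32, limma adjusted p = 7.47e-07). For Stat3 it was 2.004 (SE = 0.17, limma adjusted p = 1.1e-06). Quantile normalization took these to 3.29 and 1.03, the latter just past the limit of 1. Of the 986 genes 63.0% were called in this comparison, 36.2% higher and 26.8% lower, and the shared genes had been selected in both tables. Lif thus differed from sham in the Cal-headed libraries and in the Model-headed ones, while of these groups Stat3 was called against sham in the Model-headed one only. Its difference between Cal and Model, given above, was past the threshold in its own test.

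**Figure D3:**
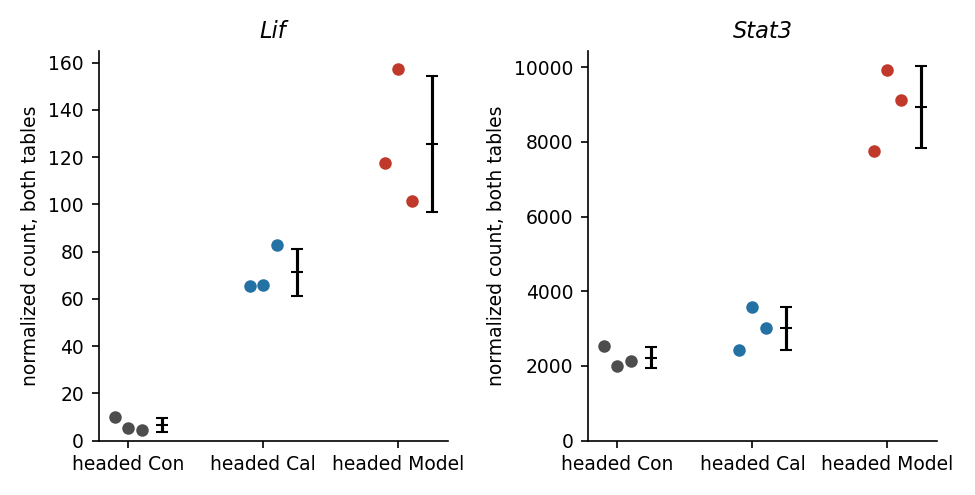
Normalized counts of Lif and Stat3 in the 9 libraries, with the Con-headed ones rescaled through the shared Cal-headed libraries. Points are libraries and the bars beside them the mean ± SD, and Lif rises from Con to Cal to Model while the Con and Cal libraries of Stat3 overlap.

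Levels of different genes were compared per kb of the gene length in the tables. In the Model-headed libraries, the mean normalized count per kb was 938 for Stat3, 595 for Il6st, 381 for Osmr, 44.5 for Il6ra and 28.9 for Lif. In the Cal-headed libraries of the same table it was 316, 355, 63.6, 10.3 and 16.4 in that order of genes. Stat3 therefore stood above Il6st per kb in the Model-headed libraries, and Il6ra stood above Lif there but below it in the Cal-headed ones. Against sham, Socs3 went from 25.2 per kb in the Con-headed libraries to 894 in the Cal-headed ones, and Il6 from 0.139 to 213. Stat3 had 261 and 353 per kb in the same libraries, and Lif 1.70 and 18.3.

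Ratios of these levels within a library do not depend on the size factors. Osmr per Il6st was 0.575, 0.793 and 0.536 in Model-headed libraries 1 to 3 and 0.118, 0.246 and 0.171 in Cal-headed libraries 1 to 3. Il6ra per Il6st was 0.0605 to 0.0996 in the Model-headed libraries and 0.0226 to 0.0350 in the Cal-headed ones, also without overlap. Stat3 per Il6st ranged from 1.27 to 1.89 and from 0.767 to 1.07 in the same groups. Lif per Il6st overlapped, at 0.0421 to 0.0569 in the Model-headed libraries and 0.0430 to 0.0499 in the Cal-headed ones. Relative to gp130 transcripts, Osmr, Il6ra and Stat3 were thus lower in the Cal-headed libraries whatever the size factors, and Lif was not separated. Socs3 per Stat3 was 0.0700 to 0.134 in the Con-headed libraries and 2.23 to 2.87 in the Cal-headed ones, again without overlap.

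**Figure D4:**
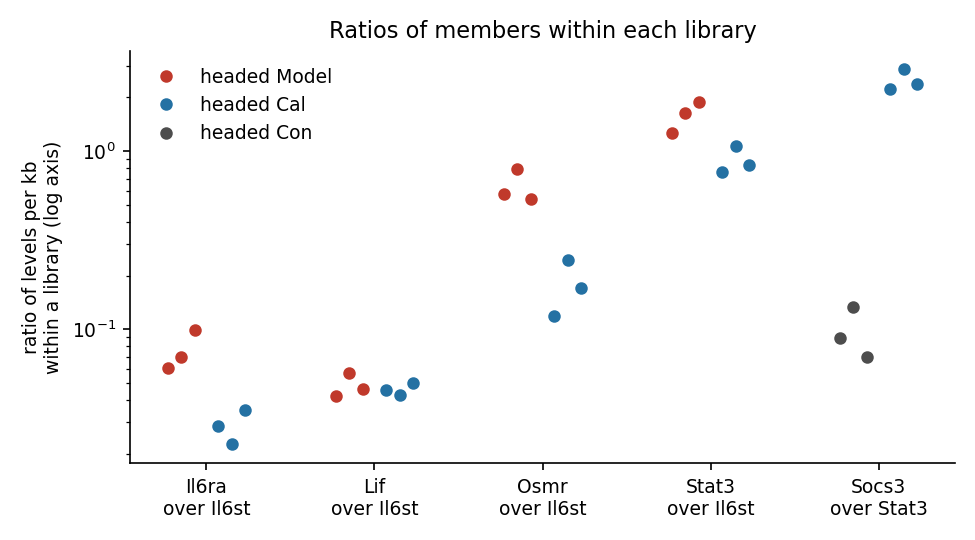
Ratios of levels per kb within each library (log axis), for members over Il6st in the Model-headed and Cal-headed libraries and for Socs3 over Stat3 in the Con-headed and Cal-headed ones. Each point is a library, and the groups overlap for Lif over Il6st only.

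Within the group headed Cal, the library headed Cal 1 had the lowest value of its group in 4 of 5 members beside Model and in 4 of 4 beside Con. Over all listed genes it was the lowest in 34.8% and 40.4%, respectively. The exception was Il6ra, which was lowest in Cal 2. Lif and Stat3 enter both counts with the same reads. For Lif beside Model, Cal 1 and Cal 2 were nearly equal, at 65.5 and 65.7 on 71 and 70 reads. The coefficient of variation within the Cal-headed libraries was 47.6% for Il6, 37.1% for Osmr, 32.7% for Socs3, 27.1% for Il6ra and 19.3% for Stat3. It was 14.0% for Lif and 7.03% for Il6st, so Il6st was the steadiest member in that group.

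Among the 985 other shared genes, those whose log2(normalized count + 1) followed Stat3 most closely over the 9 libraries were Slco3a1 (Pearson's r = 0.997), Lipg (0.994) and Slc7a5 (0.993). Slco3a1, an organic anion transporter gene, had 1148 ± 126 in the Con-headed libraries, 1459 ± 144 in the Cal-headed ones and 3377 ± 294 in the Model-headed ones (mean ± SD of 3 libraries). Those that followed Lif closely included Irak2 (r = 0.990) and Ch25h (0.989). Irak2, a kinase gene of interleukin 1 and Toll-like receptor signalling, had 136 ± 28.4, 708 ± 91.1 and 1067 ± 168 in the same order (mean ± SD of 3 libraries). The libraries fall into 3 groups, and 222 genes for Stat3 and 96 for Lif had an r over 0.9, so these values describe a shared order of the groups.

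The rest of the pathway was counted in 4 lists of 65 genes in all. The lists were chosen with earlier results of these data known, so their counts here and below are descriptions and test no enrichment. Of the 65, 30 were listed in the Cal and model table, of which 15 were called lower and 4 higher in the Cal-headed libraries, and 11 were not called. Over all 4288 genes there, 60.1% were called, 31.6% lower and 28.4% higher, so the total called was near that share. Their median Cal-over-Model log2 fold change was -1.02, against -0.52 over all genes of the table. The split by direction depended on the scaling. Under quantile normalization 12 of the 30 were called lower and 6 higher, and under median-ratio scaling 11 lower and 5 higher. The sham table listed 26 of the 65, of which 15 were called, each higher in the Cal-headed libraries than in the Con-headed ones, while 11 were not called. Over all 2458 genes there, 18.0% were called higher and 10.9% lower. The median log2 fold change of Cal over Con was 1.74, against 0.37 over all genes. Under median-ratio scaling Ptpn6 was also called, lower in the Cal-headed libraries with a log2 fold change of -1.09 (limma adjusted p = 0.00129).

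**Figure D5:**
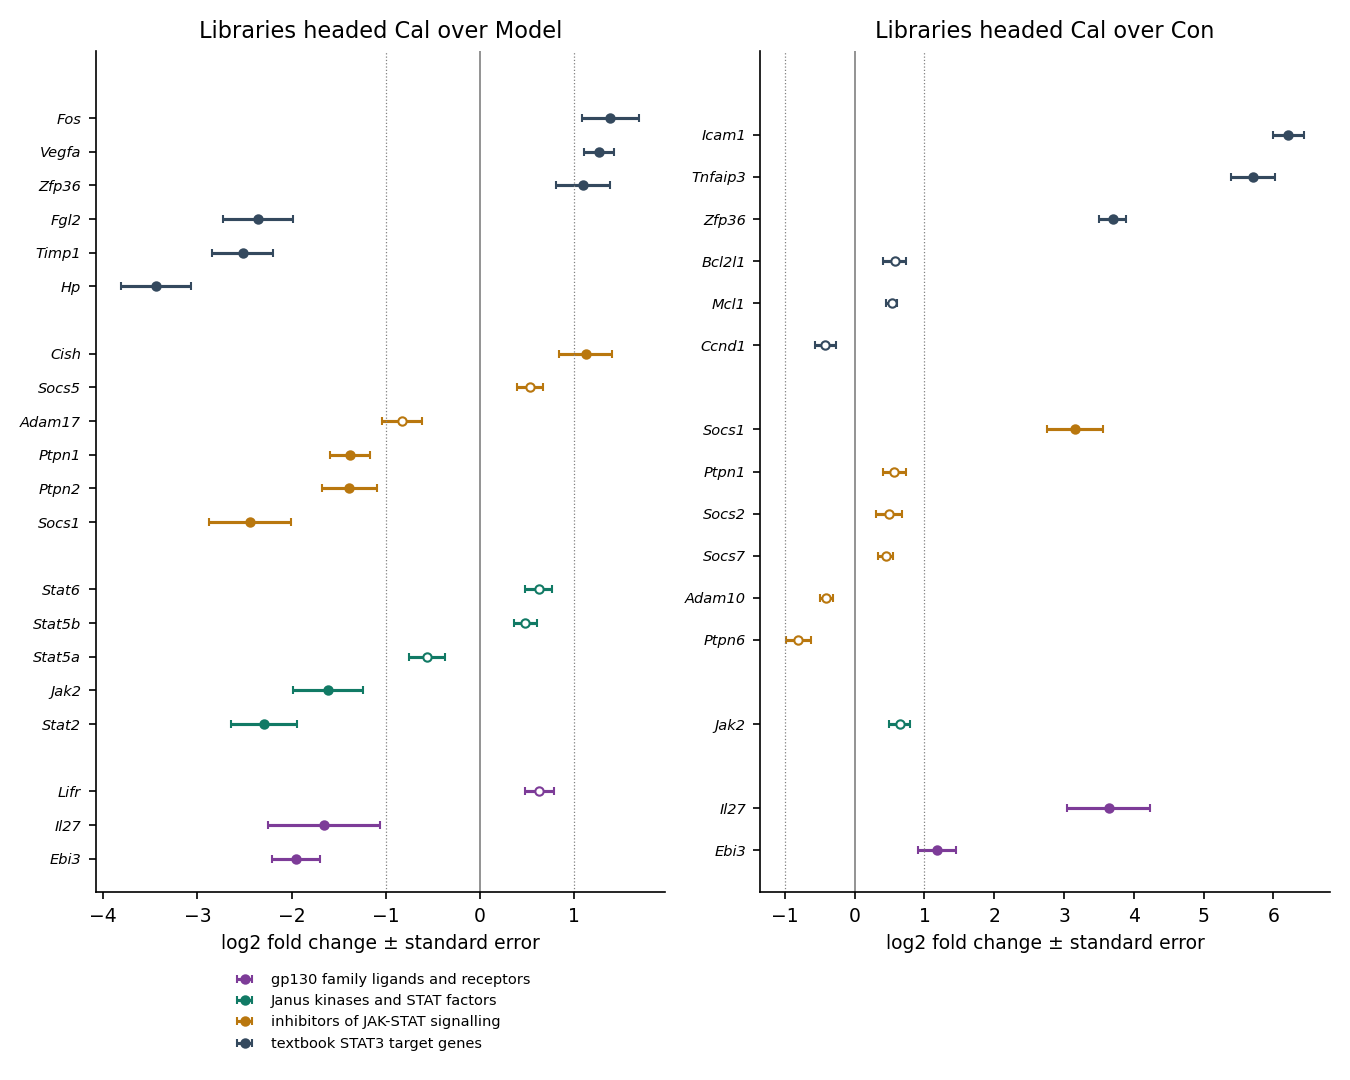
Log2 fold changes with their standard errors (limma) of the pathway genes named in the text for Cal over Model (left) and Cal over Con (right), by column headings, coloured by list. Filled points were called and dotted lines mark a log2 fold change of 1 in either direction, and most called genes lie below 0 on the left and above 0 on the right.

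Of the 16 other gp130 family ligands and receptors, 3 were listed beside Model and 2 beside Con. Ebi3, a subunit of interleukins 27 and 35, had 33.6 ± 5.38 in the Cal-headed libraries and 134 ± 31.0 in the Model-headed ones (mean ± SD of 3 libraries), a log2 fold change of -1.95 (limma adjusted p = 0.000664). Against Con it was higher in the Cal-headed libraries by 1.18 (limma adjusted p = 0.0047), and median-ratio scaling took this to 0.91 and a pseudocount of 10 to 0.87. Il27, which encodes the partner of Ebi3 in interleukin 27, had 21.6, 102 and 35.5 in Model-headed libraries 1 to 3 and 12.0, 8.45 and 21.4 in Cal-headed libraries 1 to 3. Its log2 fold change of -1.65 (limma adjusted p = 0.0263) lost its call without the library headed Model 2 (-1.04), Model 3 (-1.79), Cal 1 (-1.60) or Cal 2 (-1.37), with limma adjusted p from 0.0541 to 0.08, and under median-ratio scaling (limma adjusted p = 0.0516). With at most 1 read in any library headed Con, Il27 was at least 5.32-fold higher in the Cal-headed ones. Lifr, the LIF receptor gene, had 793 ± 102 in the Cal-headed libraries and 511 ± 62.1 in the Model-headed ones (mean ± SD of 3 libraries), a log2 fold change of 0.63 in the opposite direction to Il6st that did not reach the limit (limma adjusted p = 0.00689).

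Of the 10 Janus kinases and STAT factors, 7 were listed in the Cal and model table, 3 of them called, where 60.1% of all genes were called. Stat2, which carries interferon signals, had a Cal-over-Model log2 fold change of -2.29 (limma adjusted p = 0.00109). Jak2, a kinase used by gp130 receptors, had -1.61 (limma adjusted p = 0.00498). At the other end, Stat6, the factor of interleukin 4 signalling, had 0.63, Stat5b 0.48 and Stat5a -0.56, none beyond the limit. Stat6 was called under quantile normalization, at 1.04. Jak2 was the lone gene of this list in the sham table, with 1049 ± 207 in the Cal-headed libraries and 664 ± 63.9 in the Con-headed ones (mean ± SD of 3 libraries), a log2 fold change of 0.64 that was short of the limit (limma adjusted p = 0.0057).

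Of 17 genes listed as inhibitors of JAK-STAT signalling, which include the sheddase genes Adam10 and Adam17, 8 were listed in the Cal and model table. In the Cal-headed libraries 4 were called lower and 1 higher, against 31.6% and 28.4% of all genes there. Socs1, the relative of Socs3 that blocks Janus kinases, had 699, 1046 and 1333 in Model-headed libraries 1 to 3 and 105, 163 and 348 in Cal-headed libraries 1 to 3. Cal over Model gave a log2 fold change of -2.44 (SE = 0.43, limma adjusted p = 0.00198). Against sham it had 19.6, 27.5 and 19.2 in Con-headed libraries 1 to 3 and Cal over Con was 3.16 on the log2 scale (SE = 0.40, limma adjusted p = 0.000348). Socs1 thus had the same order of groups as Lif, with no overlap in either table.

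The tyrosine phosphatase genes Ptpn2 and Ptpn1 had Cal-over-Model log2 fold changes of -1.39 and -1.38 (limma adjusted p = 0.00376 and 0.00113), and quantile normalization took Ptpn1 to -0.99. Cish, a SOCS family member known as a target of STAT5, was the called gene in the other direction, at 1.12 (limma adjusted p = 0.00675), and was at 0.85 without the library headed Cal 2. Socs5 at 0.53 and Adam17 at -0.82, a sheddase that releases soluble interleukin 6 receptor, were not called, although Adam17 was at -1.07 without the library headed Model 3 and was then called (limma adjusted p = 0.000747). The sham table listed 7 of the 17, among which Socs1 was called, where 29.0% of all genes were called. The others that the naming rule takes were Ptpn1 at 0.57, Socs2 at 0.49, Socs7 at 0.45, Adam10 at -0.41 and Ptpn6 at -0.81 as log2 fold changes of Cal over Con. None of those 5 reached the limit in that scaling.

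Of 22 textbook STAT3 target genes, 12 were listed in the Cal and model table, with 6 called lower and 3 higher in the Cal-headed libraries. The shares over all genes there were 31.6% lower and 28.4% higher. Hp, the acute-phase gene of haptoglobin, had 69.2 ± 40.1 in the Cal-headed libraries and 696 ± 144 in the Model-headed ones (mean ± SD of 3 libraries), a log2 fold change of -3.44 (limma adjusted p = 0.000343). Timp1, an inhibitor of matrix metalloproteinases, and Fgl2, a prothrombinase gene, had -2.52 and -2.35 (limma adjusted p = 0.00062 and 0.00125). Fos, an immediate early gene, Vegfa, the angiogenic growth factor gene, and Zfp36, whose product destabilizes cytokine mRNA, were higher in the Cal-headed libraries. Their log2 fold changes were 1.39, 1.27 and 1.09 (limma adjusted p = 0.00423, 0.00062 and 0.0084). Zfp36 was at 0.82 without the library headed Model 1 and at 0.92 without Cal 1, both under the limit.

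Of the 22 targets 16 were listed in the sham table, where 12 were called, each higher in the Cal-headed libraries. The shares over all genes there were 18.0% higher and 10.9% lower. Icam1, an adhesion molecule gene, had 22562 ± 3865 in the Cal-headed libraries and 310 ± 94.7 in the Con-headed ones (mean ± SD of 3 libraries), a log2 fold change of 6.21 (limma adjusted p = 6.1e-07). Tnfaip3, which encodes the NF-κB inhibitor A20, and Zfp36 followed at 5.71 and 3.70 (limma adjusted p = 2.93e-06 and 2.75e-06). These 3 are also textbook targets of NF-κB or other inducible factors, as many genes of the list are. At the lower end, Ccnd1, the cyclin D1 gene, was at -0.42, and the survival genes Mcl1 and Bcl2l1 were at 0.53 and 0.57, none of them called.

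Over the shared genes, 14 of the 65 pathway genes could be compared between Model and Con, and 13 were called, each higher in the Model-headed libraries. The shares over all 986 genes were 36.2% higher and 26.8% lower. Timp1 had the highest log2 fold change of Model over Con among the targets, 4.64, followed by Pim1 at 2.96 and Junb at 2.74 (limma adjusted p = 2.22e-07, 2.09e-07 and 4.55e-07). Bcl2l1, Nfil3 and Fos had the lowest, 1.82, 1.57 and 1.42, and Fos was at 0.98 without the library headed Con 1. Among the inhibitors, Socs1 was at 5.60, Ptpn1 at 1.95, Socs2 at 1.36 and Ptpn6, which was not called, at 0.38. Quantile normalization took Socs2 to 0.56. Jak2 was at 2.25 and Ebi3 at 3.13. Il27 was at least 20.3-fold higher in the Model-headed libraries than in the Con-headed ones.

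Markers of several cell types were listed, and each listed one had been selected for a difference. Over all genes, 60.1% were called between Cal and Model and 29.0% between Cal and Con. In bulk RNA fewer cells of a type and less RNA per cell cannot be told apart. Of 7 neutrophil markers 5 were listed in the Cal and model table. Their summed normalized count was 71.0 to 227 in the Cal-headed libraries and 803 to 962 in the Model-headed ones. Of these 5, Mpo was near the floor in both groups, with 0 reads in the Cal-headed libraries and 7, 3 and 2 in Model-headed libraries 1 to 3. Against Con, S100a8 and S100a9 were listed and summed to 13.0 to 28.5 in the Con-headed libraries and 48.5 to 183 in the Cal-headed ones. Of 6 endothelial markers 5 summed to 9964 to 12271 in the Cal-headed libraries and 4243 to 5900 in the Model-headed ones, and 4 summed to 18508 to 20788 in the Con-headed ones and 11448 to 13112 in the Cal-headed ones of the sham table. Of 7 macrophage markers 5 summed to 3680 to 4455 in the Cal-headed libraries and 2130 to 2608 in the Model-headed ones, but not all moved one way. Csf1r and C1qa were called higher in the Cal-headed libraries (log2 fold changes of 1.56 for both) and Fcgr1 lower (-2.99, limma adjusted p = 0.00156), while Cd68 and Cd14 were not called. Against Con, Cd14 was higher in the Cal-headed libraries (3.44, limma adjusted p = 3.95e-06) and Mrc1 was at -0.49 (limma adjusted p = 0.00227), not called, with a sum of 1094 to 1210 in the Con-headed ones and 2001 to 2755 in the Cal-headed ones.

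Of 7 fibroblast markers, 4 summed to 17378 to 21126 in the Cal-headed libraries and 15696 to 22941 in the Model-headed ones. These sums overlap although no single marker did. Col1a1 and Col1a2 were called higher in the Cal-headed libraries (log2 fold changes of 1.38 and 1.01, limma adjusted p = 0.000514 and 0.00124), Col3a1 was at 0.85 and Dcn, the most abundant of the 4, at -0.68, neither called. Against Con, 3 were listed and summed to 14247 to 15843 in the Con-headed ones and 9463 to 12300 in the Cal-headed ones. Of 6 smooth muscle and pericyte markers, 2 summed to 3194 to 3440 in the Cal-headed libraries and 2079 to 2306 in the Model-headed ones, and 4 to 18882 to 22165 in the Con-headed ones and 13894 to 15365 in the Cal-headed ones. None of 7 T cell markers was listed. The part of these cell types in the differences of the 7 members was not tested.

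The scaling of the libraries bears on the smaller differences. The median log2 fold change of all listed genes was -0.52 for Cal over Model and 0.37 for Cal over Con, and quantile normalization moved these medians by 0.42 and -0.42, median-ratio scaling by 0.30 and -0.28. Under those scalings, calls over all genes went from 1219 higher and 1356 lower in the Cal-headed libraries than in the Model-headed ones to 1393 and 1175, or to 1646 and 1047. Against Con they went from 443 higher and 269 lower to 348 and 387, or to 342 and 447. For Model over Con they went from 357 higher and 264 lower to 278 and 324, or to 340 and 284, and the median of 0.16 moved by -0.34 or -0.16. Relative to the median of all genes, the Cal-over-Model log2 fold changes were -2.09 for Osmr, -1.61 for Il6ra, -1.06 for Stat3, -0.27 for Lif and -0.21 for Il6st. Those of Cal over Con were 8.17 for Il6, 4.75 for Socs3, 2.96 for Lif and 0.05 for Stat3. Osmr and Il6ra between Cal and Model, and Il6, Socs3 and Lif between Cal and Con, were called under each of the 3 scalings.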

How the data were processed

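Poly(A) RNA of cardiac tissue was sequenced by the authors in paired-end reads on an Illumina HiSeq instrument. According to the Methods, reads were aligned to rat reference sequences, counted per gene and tested with DESeq2. The submitters' processing notes name Bowtie 0.12.2 and the builds mm8 and mm9 without a role, and the tables hold mouse Ensembl genes. The counting tool is not given in the sources used here, nor is strand, so overlapping genes cannot be told apart. Rat symbols matched 6 of the 7 members in the GRCr8 gene table, and Il6ra matched as a synonym of Il6r.

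The signal deposited by the authors in each sample column is a count divided by a size factor, computed separately per table. All values (100%) were whole reads within 0.001 once divided by the smallest value of their column, and reads were recovered in this way. The deposited columns of the authors' own comparison (fold change, p-value and adjusted p-value) gave no result, and the last served only to test how genes had been selected. Deposited group means were compared with the sample columns. No sample column was left unmapped.

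Genes were tested with limma 3.58.1 in R 4.3.3 on log2(normalized count + 1) with a trended prior variance and Benjamini-Hochberg adjustment over all genes of each fit. A gene was called where the adjusted p was under 0.05 and the fold change beyond 1 on the log2 scale. For Model against Con, the values of the Con-headed libraries were divided by 1.118, the mean ratio of the size factors of the shared libraries between tables (1.115 to 1.121), and all 9 libraries were fitted. The members and lists were chosen with earlier results of these data known. Every listed member was named, and from each pathway list all listed genes of a fit or, beyond 6, the 3 highest and 3 lowest. Genes like a member were taken from the 3 with the highest correlation. Some genes that these rules take are not reported here. Exact permutation tests used scipy 1.17.1. The alternatives tried were quantile normalization or median-ratio scaling, a pseudocount of 0.1 or 10, dropping genes with a mean under 10, calls without a fold limit or with a threshold of 0.01, a replicate block, leaving out each library, and count models on the recovered reads (edgeR 4.0.16, DESeq2 1.42.0). The scripts were tested on simulated data. Replicates are different rats, and same-numbered libraries of different groups are not the same animal. Upstream windows came from RefSeq; those of Il6ra, Il6st and Socs3 lie far inside the gene, and those of Osmr and Stat3 241 and 154 bases inside it, so their sequences were not used, and none was found for Lif.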

Additional observations from a re-analysis of the deposited data

How the results depend on the processing

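Without the fold change limit, all 5 listed members were called between Cal and Model, as were all 30 listed pathway genes there and all 26 between Cal and Con. Nearly every gene passed that cut, 4272 of 4288 between Cal and Model and 2454 of 2458 between Cal and Con. These counts therefore say nothing particular about the members or the pathway. Quantile normalization reversed Stat3 between Cal and Con (-0.0505, adjusted p = 0.768 from limma) and Ptpn11 (-0.0204, adjusted p = 0.847 from limma); the cause was not tested. It left 2 members called between Cal and Model. Under every other alternative that kept the fold change limit, leaving out each library included, 3, 3 and 2 members were called in the 3 comparisons. Without that limit 5 were called between Cal and Model and 4 between Cal and Con. Pathway genes called ranged from 17 to 19 (Cal and Model), 15 to 16 (Cal and Con) and 12 to 13 (Model and Con) with each library left out. By edgeR and by DESeq2 on the recovered reads 19, 15 and 13 pathway genes were called, as in limma. With the replicate block 19, 15 and 13 pathway genes and 3, 3 and 2 members were called, and no member's call changed. The numbers mark different rats, and the deviations of same-numbered libraries correlated between -0.12 and 0.11 in the Cal and model table and between -0.14 and -0.02 in the sham table, so they share only a number. Both tables hold selected genes, the full depth is unknown, and 3 libraries per group limit each p.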
